A study of Mus musculus with 8 samples.

Results

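ISG15 is a small ubiquitin-like protein that is attached to other proteins, and the genes described here are Isg15 itself, the 3 enzymes that attach it, Uba7, Ube2l6 and Herc6, and the protease that takes it off again, Usp18. These 5 genes were taken by symbol from a table of 22520 protein-coding genes, and all 5 were present. They were chosen from the measured values of the same comparison that is described below, with the high signals of Isg15 and Usp18 in LRP1 eKO libraries already known. Their differences between genotypes are therefore given as a description, without a test.

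ISG15 is made in response to type I interferon and is conjugated in steps that resemble those of ubiquitin. UBA7 activates it as the E1 enzyme, UBE2L6 carries it as the E2 enzyme, and in mice HERC6 serves as the main E3 ligase that places it on target proteins. USP18 cleaves ISG15 from its targets and, in a separate role, binds IFNAR2 together with STAT2 and dampens signaling from the type I interferon receptor.

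Cells isolated from liver as endothelial cells (ECs) were profiled by mRNA-seq in 4 WT and 4 LRP1 eKO libraries, to find what changes in ECs when the endocytic receptor LRP1 is depleted. Every mouse was listed as C57BL/6 and, by the sample labels, at postnatal day 14. The paper, however, gives its LRP1-floxed line a stock name of mixed background, so a pure C57BL/6 background is not established. Both groups carried floxed alleles of Lrp1 (LRP1 f/f). LRP1 eKO mice also carried Cdh5-CreER (+/-), an inducible recombinase driven by the promoter of the endothelial gene Cdh5, whereas their WT littermates did not (Cdh5-CreER -/-). The presence of CreER and the loss of Lrp1 therefore cannot be told apart in this comparison. ECs were selected with PECAM-1 antibody beads, and the labels call them liver microvesicular cells. Their markers go against a pure endothelial population, since 10 pan-endothelial markers summed to a signal of 46.6 to 54.5 in WT and 68.9 to 86.3 in LRP1 eKO libraries, and 9 markers of stellate cells and fibroblasts to 1981 to 2298 and 1760 to 2212. The cells are therefore called ECs here only as the study names them. The labels do not say whether each library came from a separate animal, so that p-values measure the spread between these libraries, which may be technical. In bulk samples of this kind, fewer cells of a type and less RNA per cell cannot be told apart.

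The deposited values are quantile-normalized signals, of which each library holds a total between 484445 and 485947, so that the read depth is unknown. Lrp1, the targeted gene, averaged 65.5 ± 13.3 (WT) and 4.41 ± 1.65 (LRP1 eKO, SD, n = 4 libraries a group), which was 6.74% of the WT mean (limma adjusted p = 2.8e-06). Fold changes are differences of the mean log2(signal + 1), a scale on which low signals appear to change less than they did. A gene was called higher or lower when its change reached 2-fold and its limma p, adjusted by Benjamini-Hochberg, was under 0.05. The test took in the 11391 genes whose signal reached 1 in 4 or more libraries. Of these, 0.869% were called higher and 0.790% were called lower in LRP1 eKO libraries. WT replicate 4 was the library farthest from its group median for 61.7% of these genes, and among LRP1 eKO libraries replicate 2 was the farthest for 37.2%.

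The promoters of Isg15 and Ube2l6 are shown because the genes belong to the same conjugation pathway and both had higher signals in LRP1 eKO libraries, while their sequences differ in a motif that interferon-induced transcription factors bind. The interferon-stimulated response element (ISRE), a site that a complex containing STAT2 and IRF9 binds, was searched as the letters GAAANNGAAA on both strands. The sequences are from RefSeq (GRCm38.p6) and run from 250 bases before to 50 bases after the annotated start of the gene, at chr4:156200769-156201068 on the minus strand for Isg15 and at chr2:84798578-84798877 on the plus strand for Ube2l6. Capitals mark the bases covered by a match to the ISRE letters.
Isg15: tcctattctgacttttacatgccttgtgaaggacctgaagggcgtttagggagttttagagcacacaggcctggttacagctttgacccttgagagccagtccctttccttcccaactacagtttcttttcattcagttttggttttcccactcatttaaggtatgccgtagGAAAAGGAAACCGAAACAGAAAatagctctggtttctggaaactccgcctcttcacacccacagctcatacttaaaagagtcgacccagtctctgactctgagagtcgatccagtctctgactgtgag
Ube2l6: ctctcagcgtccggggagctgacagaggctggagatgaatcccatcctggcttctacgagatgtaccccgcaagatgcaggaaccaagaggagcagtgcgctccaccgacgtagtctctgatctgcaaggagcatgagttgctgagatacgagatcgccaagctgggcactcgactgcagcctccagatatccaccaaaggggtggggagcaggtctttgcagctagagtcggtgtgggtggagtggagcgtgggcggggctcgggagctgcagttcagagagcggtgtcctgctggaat
In the Isg15 promoter, 3 matches overlapped each other, the first of them starting 78 bases before the annotated start. The Ube2l6 sequence held 0 matches, and so did the promoter sequences of Uba7 and Herc6. Among all 27025 genes with a promoter sequence in this set, 3.99% held the ISRE letters. The letters TTCNNNGAA of the gamma-activated site (GAS), another interferon response motif, occurred in 9.55% of all promoters and in 0 of these 4. A match is a description of the sequence and not a measured binding site, and the absence of a match says only that the letters are not in this window. For Usp18, no sequence was printed.

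Isg15 showed the highest log2 fold change of all 11391 genes tested. The gene (ENSMUSG00000035692) lies on chromosome 4 of GRCm38 from 156199424 to 156200818 on the minus strand, with 2 exons and 161 codons. Its signal was 10.2, 9.52, 10.7 and 13.4 in WT replicates 1 to 4, and 141, 124, 148 and 139 in LRP1 eKO replicates 1 to 4. The groups did not overlap, and the lowest LRP1 eKO library was 9.27 times the highest WT library. The mean was 11.0 ± 1.69 across WT and 138 ± 9.94 across LRP1 eKO libraries (SD, n = 4 each), a 12.6-fold ratio of means and a log2 fold change of 3.55 (standard error 0.094). WT replicate 4 had the highest signal of its group, and LRP1 eKO replicate 2 the lowest of its group.

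Uba7, the E1 enzyme that activates ISG15 and starts the cascade, had the smallest difference of the 5 genes. It lies on chromosome 9 from 107975505 to 107984060 on the plus strand, with 24 exons and 977 codons. Its signal was 6.22, 6.02, 5.89 and 6.67 in WT libraries, and 10.1, 9.46, 12.5 and 10.4 in LRP1 eKO libraries. The groups did not overlap, although the lowest LRP1 eKO library was only 1.42 times the highest WT library. The mean went from 6.20 ± 0.337 (SD, n = 4) to 10.6 ± 1.31 (SD, n = 4), a 1.71-fold ratio and a log2 fold change of 0.68 (standard error 0.080), which ranked 294 of the genes tested and stayed under the 2-fold threshold.

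Ube2l6 encodes the E2 enzyme that receives ISG15 from UBA7 and hands it to the ligase. It lies on chromosome 2 from 84798828 to 84810335 on the plus strand, with 4 exons and 153 codons. Its signal was 24.5, 23.8, 26.9 and 30.8 in WT libraries, and 61.4, 73.9, 58.6 and 68.7 in LRP1 eKO libraries. Every LRP1 eKO library lay above every WT library, the lowest at 1.90 times the highest WT value, and here LRP1 eKO replicate 2 was the highest library. The mean went from 26.5 ± 3.15 (SD, n = 4) to 65.7 ± 6.97 (SD, n = 4), a 2.48-fold ratio and a log2 fold change of 1.28 (standard error 0.093), which ranked 57.

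Herc6, which encodes the E3 ligase, had more than a 2-fold higher mean signal in LRP1 eKO libraries, but it stayed just under the threshold on the log2(signal + 1) scale. It lies on chromosome 6 from 57581000 to 57664632 on the plus strand, with 23 exons and 1003 codons. Its signal was 2.21, 2.44, 2.14 and 2.02 in WT libraries, and 5.10, 5.15, 5.14 and 5.60 in LRP1 eKO libraries. The groups did not overlap, with the lowest LRP1 eKO library at 2.09 times the highest WT library, and 3 of the 4 LRP1 eKO libraries lay almost on top of each other. The mean was 2.20 ± 0.176 across WT and 5.24 ± 0.235 across LRP1 eKO libraries (SD, n = 4 each). The ratio of these means was 2.38, but on the log2(signal + 1) scale the difference was 0.96 (standard error 0.062), below the 2-fold threshold. With a pseudocount of 0.1 in place of 1 the log2 fold change was 1.22, and Herc6 passed.

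Usp18, the protease that removes ISG15 and restrains signaling at IFNAR2, had the highest ratio of means of the 5 genes. It also lies on chromosome 6, from 121245906 to 121270917 on the plus strand, with 11 exons and 368 codons. Its signal was 1.66, 1.39, 1.43 and 2.01 in WT libraries, and 25.5, 26.1, 23.5 and 25.5 in LRP1 eKO libraries. The lowest LRP1 eKO library was 11.7 times the highest WT library, so that the groups were far apart. The mean was 1.62 ± 0.283 across WT and 25.2 ± 1.15 across LRP1 eKO libraries (SD, n = 4 each), a 15.5-fold ratio and a log2 fold change of 3.32 (standard error 0.079), which ranked 4. With a pseudocount of 5 the log2 fold change was 2.19.

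**Figure D1:**
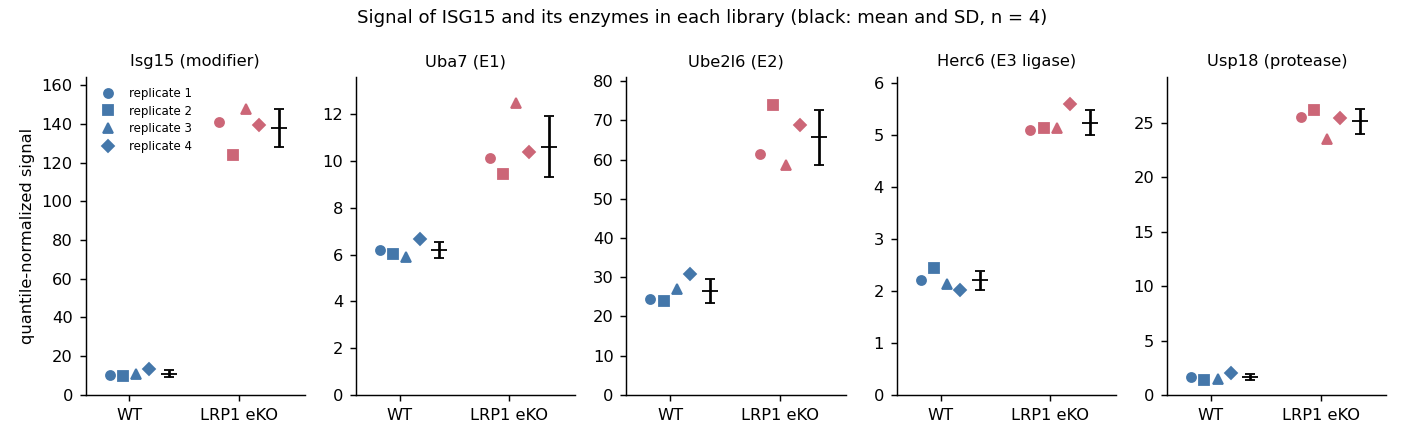
Quantile-normalized signal (y axis, from 0, on a scale of its own in each panel) of Isg15, Uba7, Ube2l6, Herc6 and Usp18 in each WT (blue) and LRP1 eKO (red) library, with replicate numbers as point shapes and the mean and SD (n = 4) in black. The 4 LRP1 eKO libraries of each gene sit above its 4 WT libraries, with the widest gap for Usp18 and the narrowest for Uba7.

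In the counts, 3 of the 5 genes (Isg15, Usp18 and Ube2l6) passed the threshold as higher, where 0.869% of all genes tested did. At an adjusted p under 0.05 alone, 5 of 5 were higher, where 19.0% of all genes tested were. All 5 had every LRP1 eKO library above every WT library, which held for 20.0% of all genes tested. The median log2 fold change of the 5 genes was 1.28, and that of all genes tested was -0.0095. Because the genes were chosen from this comparison, nothing is read from these counts.

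The spread between libraries of 1 group differed among the 5 genes. In WT libraries the coefficient of variation was 15.4% for Isg15, 5.44% for Uba7, 11.9% for Ube2l6, 8.0% for Herc6 and 17.5% for Usp18. The corresponding values in LRP1 eKO libraries were 7.20%, 12.3%, 10.6%, 4.48% and 4.59%. WT replicate 4 was the highest WT library for Isg15, Uba7, Ube2l6 and Usp18, and the lowest for Herc6. Without WT replicate 4 and LRP1 eKO replicate 2, the libraries that stood apart, the log2 fold changes were 3.69 for Isg15, 0.76 for Uba7, 1.29 for Ube2l6, 0.94 for Herc6 and 3.37 for Usp18.

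The ratio of Isg15 to each enzyme within a library shows that the genes did not move in equal proportion. The ratio of Isg15 to Uba7 was 1.76 ± 0.190 across WT and 13.1 ± 0.882 across LRP1 eKO libraries (SD, n = 4 each), a 7.41-fold difference. The ratio to Ube2l6 went from 0.413 ± 0.0178 to 2.13 ± 0.362 (5.16-fold), and the ratio to Herc6 from 5.03 ± 1.15 to 26.3 ± 2.19 (5.23-fold, SD, n = 4 in each group). Relative to each of its conjugating enzymes, Isg15 was higher in every LRP1 eKO library than in any WT library. The ratio of Isg15 to the deconjugating Usp18 was different. It was 6.17, 6.87, 7.46 and 6.68 in WT libraries and 5.52, 4.75, 6.29 and 5.47 in LRP1 eKO libraries, so that the groups overlapped and the mean ratio in LRP1 eKO was 0.810 times that in WT. Since the unit before normalization is not stated, these ratios can be compared between groups but not read as relative amounts of 2 transcripts.

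**Figure D2:**
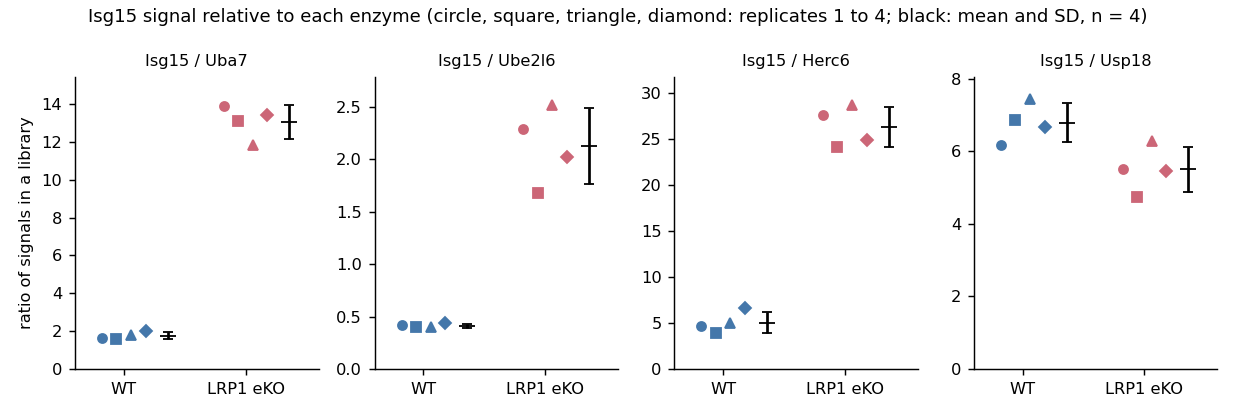
Ratio of the Isg15 signal to the signal of Uba7, Ube2l6, Herc6 or Usp18 (y axis, from 0) within each WT (blue) and LRP1 eKO (red) library, with mean and SD (n = 4) in black. The first 3 ratios were 5.16-fold to 7.41-fold higher in LRP1 eKO libraries, and the ratio to Usp18 overlapped between the groups.

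Some transcripts of these genes share sequence with other genes, and the files do not say whether reads were counted by strand. Of the stretches of 50 bases in the annotated transcripts, 3.96% in Isg15, 4.74% in Uba7, 10.3% in Ube2l6, 23.8% in Herc6 and 3.78% in Usp18 also occur in transcripts of another gene. For Herc6 that gene is Gm45193, a processed transcript that overlaps it on the same strand and is not among the coding genes of the table. Gm20661, a coding gene overlapping Uba7 on the same strand, had a signal below 1 in every library. For Usp18 it is Gm44148, a noncoding gene on the opposite strand. The nearest coding gene of the table on either side of each member was also examined, a choice made after the data were seen. Of these 10 neighbors, 6 were tested and 0 passed the threshold, with limma log2 fold changes between -0.62 for Traip and 0.56 for Agrn, which lies 1936 bases from Isg15. At an adjusted p under 0.05 alone, 1 neighbor was higher and 3 were lower, beside 19.0% and 22.2% of all genes tested.

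The genes with the most similar profiles were found by the root mean square difference over the 8 libraries, after log2(signal + 1) was centered on the WT mean. The 5 members themselves were left out of this search. For Isg15 they were Esr1 (0.156), Ifit1 (0.215) and Ifi44 (0.292), and for Usp18 they were Ifit1 (0.148), Esr1 (0.164) and Ifi44 (0.185). Ifit1 binds foreign RNA, and Ifi44 is another interferon-induced gene. Esr1 encodes the estrogen receptor, and CreER fusion proteins carry the ligand-binding domain of an estrogen receptor. The Esr1 signal was 0.203 ± 0.0404 across WT and 12.4 ± 0.273 across LRP1 eKO libraries (SD, n = 4 each). The part of CreER in the Esr1 signal was not tested. Few genes outside the 5 members came this close, since 2 lay within 0.25 of Isg15 and 3 within 0.25 of Usp18.

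The profiles of the other 3 genes were shared by more genes. Ube2l6 was nearest to Bglap2 (0.111), an osteocalcin gene, to Gadd45g (0.124), a stress-response gene, and to Mndal (0.125), a gene of the interferon-induced Ifi200 group, and 43 genes lay within 0.25 of it. Bglap2 had a signal of 0.0259 ± 0.0302 across WT and 1.48 ± 0.290 across LRP1 eKO libraries (SD, n = 4 each), so that it resembles Ube2l6 only on the log2(signal + 1) scale and not in the ratio of its means. The same holds for Esr1 beside Isg15 and Usp18. Herc6 was nearest to Hpgd (0.0455), which degrades prostaglandins, and then to Dtx3l (0.0642), an E3 ligase, with 163 genes within 0.25. Uba7 was nearest to Mnda (0.0721), to Ifitm3 (0.0849), which restricts virus entry, and to Cyr61 (0.0938), a matricellular gene, with 471 genes within 0.25. The number of genes within this distance was lower for the members with the larger log2 fold changes. Because profiles were centered on the WT mean, the distance depends mainly on the log2 fold change, and nothing is read from these numbers. Esr1, Bglap2 and Ifi44, with mean WT signals under 1, would not have entered the test without their LRP1 eKO libraries.

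Each of the 5 proteins belongs to a family that serves ubiquitin or other modifiers, and those relatives passed the test about as often as genes in general. Of 97 genes of the 5 families, 92 were tested, and 0 were called higher and 1 was called lower, where 0.869% and 0.790% of all genes were. By limma, 29 were higher and 19 were lower at an unadjusted p under 0.05, where 23.9% and 26.7% of all genes tested were. At an adjusted p under 0.05 alone, 19 were higher and 16 were lower, while 19.0% and 22.2% of all genes tested were. Their log2 fold changes had a median of 0.04 and ranged from -1.08 to 0.56, while the smallest value of the 5 ISG15 genes was 0.68 for Uba7, a difference that was not tested.

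Among 9 other E1 enzymes, 0 were called. Uba1, the ubiquitin E1 and nearest relative of Uba7, had a signal of 97.9 ± 4.26 across WT and 100 ± 2.44 across LRP1 eKO libraries (SD, n = 4 each, log2 fold change 0.03, adjusted p = 0.595 by limma). Uba2 and Sae1, which together activate SUMO, had log2 fold changes of -0.26 and -0.18, and Atg7, the E1 of autophagy, had 0.29, with limma adjusted p of 0.00165, 0.013 and 0.00552. Among 28 other E2 enzymes, 0 were called higher and Ube2c was called lower. Ube2l3, the closest relative of Ube2l6, had a signal of 81.5 ± 2.59 across WT and 85.3 ± 2.43 across LRP1 eKO libraries (SD, n = 4 each, log2 fold change 0.06, adjusted p = 0.233 by limma). Ube2c, the E2 enzyme of the anaphase-promoting complex in mitosis, fell from 46.1 ± 2.37 (SD, n = 4) to 21.4 ± 2.29 (SD, n = 4), a log2 fold change of -1.08 (adjusted p = 5.97e-06 by limma). Every LRP1 eKO library lay below every WT library. With a pseudocount of 5 its log2 fold change was -0.96, which missed the 2-fold threshold.

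Of the 4 other HERC ligases, 0 passed the limma test, and 2 were higher at an unadjusted p under 0.05, beside 23.9% of all genes tested. The log2 fold change was 0.21 for Herc1, 0.17 for Herc2, 0.22 for Herc3 and -0.03 for Herc4, with limma adjusted p between 0.0875 and 0.635. The 33 other USP proteases that were tested included 0 called genes, with a median log2 fold change of 0.11. The smallest adjusted p belonged to Usp53 with a log2 fold change of 0.56 (0.00119), Usp22 with 0.26 (0.00225) and Usp24 with 0.39 (0.00297). Of 18 other ubiquitin-like modifiers that were tested, 0 were called. A negative log2 fold change was found in 13 of them, and in 5875 of all 11391 genes tested. Map1lc3a and Atg12, both of autophagy, had -0.30 and 0.20, and Ubl3 had -0.23 (limma adjusted p of 0.00286, 0.00746 and 0.00423). Ubb, a ubiquitin gene, had a log2 fold change of 0.16 (adjusted p = 0.0266). Ubd, which encodes the interferon-induced modifier FAT10, was listed at 0 in every library.

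**Figure D3:**
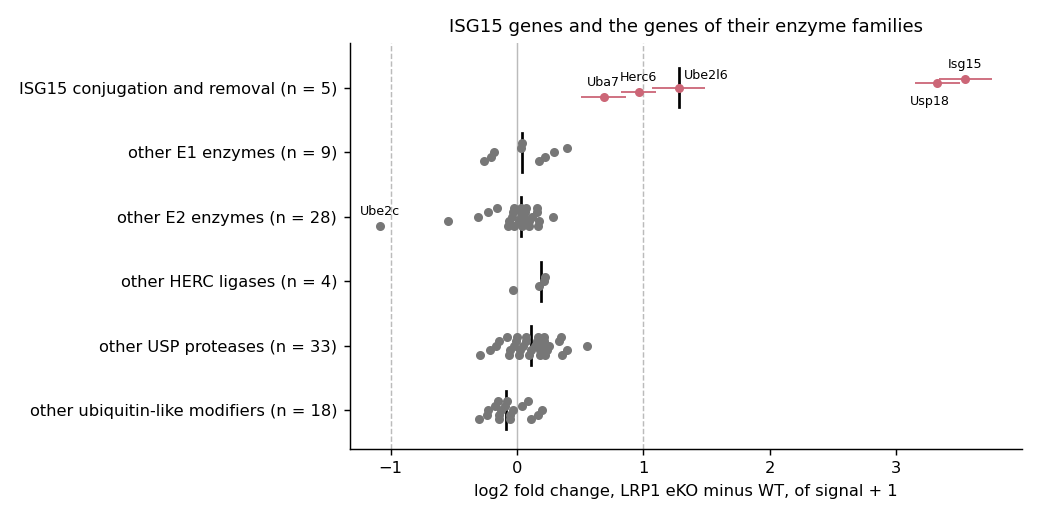
Log2 fold change (x axis, LRP1 eKO minus WT, of signal + 1) of the 5 ISG15 genes (red, with 95% confidence intervals) and of the tested genes of their families (gray), with the median of each row in black and dashed lines at a 2-fold change. The 92 relatives range from -1.08 to 0.56, and Ube2c is the only one of them past a dashed line.

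Further proteins that act with ISG15 or USP18 were taken from a list of 17 genes, 16 of which were tested. As with the families above and the lists below, it was chosen with earlier results of these data known. The counts and p-values of these lists are therefore given as a description. Stat2, which recruits USP18 to the receptor and is part of the interferon transcription factor, was the only one called higher. None was called lower, and of all genes tested 0.869% were called higher and 0.790% lower. Its signal was 9.41, 9.18, 8.92 and 9.16 in WT libraries and 22.3, 24.3, 23.3 and 22.6 in LRP1 eKO libraries, without overlap (log2 fold change 1.25, adjusted p = 1.15e-07 by limma). With a pseudocount of 5 the log2 fold change was 0.99, just under the threshold. At an adjusted p under 0.05 alone, 5 of the 16 were higher and 2 were lower, beside 19.0% and 22.2% of all genes tested. The median log2 fold change of the list was 0.07.

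Trim25 and Arih1, both E3 ligases reported to act on ISG15 as well as ubiquitin, stayed under a 2-fold change. The signal of Trim25 was 10.4 ± 0.634 across WT and 16.6 ± 1.15 across LRP1 eKO libraries (SD, n = 4 each, log2 fold change 0.63, adjusted p = 6.43e-05 by limma), and Arih1 had a log2 fold change of 0.77 (adjusted p = 0.00056). Ifnar2, the receptor chain to which USP18 binds, had a log2 fold change of -0.21 that did not pass the test (limma adjusted p = 0.0638). Skp2, the ligase subunit that targets USP18 for degradation, had -0.32 (adjusted p = 0.00156). Itgb2 encodes a chain of the integrin that free ISG15 binds outside cells, and its signal was 14.5, 2.32, 13.8 and 7.90 in LRP1 eKO replicates 1 to 4 against 3.64 ± 0.751 (SD, n = 4) in WT libraries. Its log2 fold change was 0.98 (adjusted p = 0.0849 by limma). Leaving out LRP1 eKO replicate 2 gave 1.47 (adjusted p = 0.00065), so that 2 partners were then called higher. With the mean of the macrophage markers described below as a covariate, the log2 fold change of Itgb2 was 0.24 (adjusted p = 0.0393 by limma). Among LRP1 eKO libraries the Itgb2 signal, like the mean of those markers, was lowest in replicate 2 and highest in replicate 1. The part of macrophages in the Itgb2 values was not tested.

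Proteins that have been reported to carry ISG15 formed a list of 15 genes. Of the 14 tested, 4 were called higher and 0 lower, beside 0.869% and 0.790% of all genes tested, and the median log2 fold change was 0.34. Among them were Ifih1 and Ddx58, the sensors MDA5 and RIG-I of viral RNA, and Adar, which edits double-stranded RNA. Ifih1 rose from 3.99 ± 0.314 to 11.6 ± 1.09 (SD, n = 4 in each group, log2 fold change 1.33, limma adjusted p = 1.61e-06). Ddx58 rose from 12.7 ± 0.787 to 28.4 ± 1.11 (SD, n = 4 in each group, log2 fold change 1.10, adjusted p = 6.86e-07). Both genes are themselves induced by interferon. In each of these 3 genes every LRP1 eKO library lay above every WT library. With a pseudocount of 5, all 3 fell under the 2-fold threshold. Their log2 fold changes were then 0.88 for Ifih1, 0.92 for Ddx58 and 0.84 for Adar.

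The call of Adar lay close to the 2-fold threshold. Adar rose from 11.0 ± 0.532 to 23.5 ± 0.687 (SD, n = 4 in each group), a log2 fold change of 1.04 (adjusted p = 5.36e-07 by limma). At an adjusted p under 0.05 alone, 9 of the 14 were higher and 0 were lower, beside 19.0% and 22.2% of all genes tested. Eif2ak2, the antiviral kinase PKR, was among the 9 with a log2 fold change of 0.93. Irf3, which ISG15 conjugation is reported to stabilize, had -0.15 (limma adjusted p = 0.0542). Mx1 had signals below 1 in every library and was not tested.

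Genes of the interferon signal that induces ISG15 were read from a list of 13, which shares genes such as Stat2, Jak1 and Ifnar2 with the lists of partners and substrates. Of the 10 tested, Irf7 and Stat2 were called higher and 0 were called lower, beside 0.869% and 0.790% of all genes tested. Irf7, the interferon-induced amplifier of interferon transcription, was 10.7, 9.99, 9.07 and 11.2 in WT libraries and 69.1, 58.4, 69.1 and 63.5 in LRP1 eKO libraries (log2 fold change 2.55, adjusted p = 1.67e-08 by limma). Irf9, the partner of STAT2 on the ISRE, had a log2 fold change of 0.99 (adjusted p = 1.89e-06 by limma) and was on either side of the 2-fold threshold depending on the library left out. The receptor chain Ifnar1 had 0.03 (adjusted p = 0.712) and the kinase Tyk2 had 0.11 (adjusted p = 0.105). Of the interferons themselves, Ifna4 and Ifng were listed at 0 in every library, and Ifnb1 was listed at 0 in every WT library, with 0.0405 and 0.0465 in LRP1 eKO replicates 2 and 4.

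**Figure D4:**
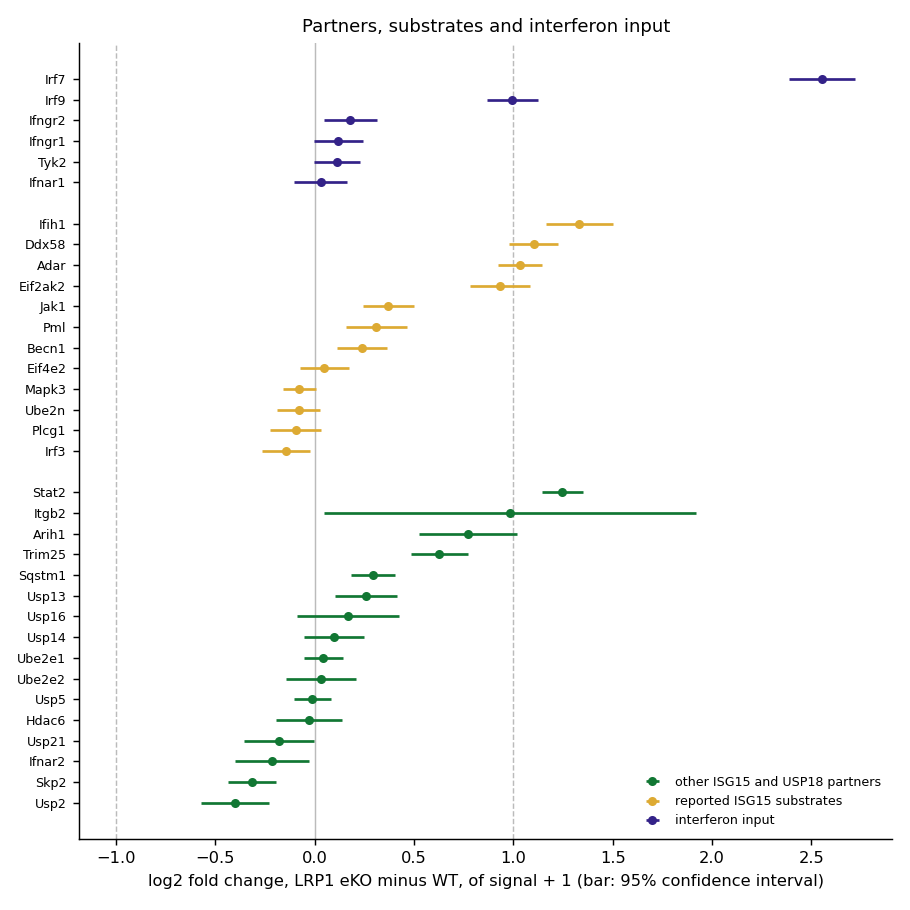
Log2 fold change with 95% confidence interval (x axis, LRP1 eKO minus WT, of signal + 1) of the tested genes reported here among the partners of ISG15 and USP18 (green), the reported substrates (yellow) and the interferon genes (purple), where a gene on more than 1 list is drawn once. Irf7 lies at 2.55, and Stat2, Ifih1, Ddx58 and Adar lie past the dashed line of a 2-fold increase, while the interval of Itgb2 runs from 0.05 to 1.92.

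Markers of some other cell types, such as hepatocytes and skeletal muscle, moved with genotype too, and their part in the values of the ISG15 genes was not tested. All 10 pan-endothelial markers were above 0 in every library, with a mean log2(signal + 1) of 1.90 to 2.18 in WT and 2.26 to 2.63 in LRP1 eKO libraries, and Pecam1, the marker used for selection, had a signal of 2.09 ± 0.416 across WT and 3.02 ± 0.911 across LRP1 eKO libraries (SD, n = 4 each). Over 8 markers of liver sinusoidal endothelium the mean was 0.99 to 1.20 in WT and 1.09 to 2.11 in LRP1 eKO libraries. The mean over 8 hepatocyte markers was 3.51 to 3.83 in WT and 2.49 to 2.73 in LRP1 eKO libraries, and over 7 skeletal muscle markers 1.89 to 2.43 and 0.73 to 0.90. Over 9 stellate cell and fibroblast markers it was 5.52 to 5.56 and 5.47 to 5.60, with Col1a1 at 389 ± 43.8 (SD, n = 4) in WT libraries. Marker RNA of hepatocytes, stellate cells or fibroblasts and muscle was thus present in the libraries of both groups. All 10 T and NK cell markers and all 5 B cell markers stayed below 1 in every library. Of 7 plasmacytoid dendritic markers, 2, among them Siglech, were listed at 0 in every library, and Bst2, which interferon itself induces, was 91.7 ± 5.85 across WT and 265 ± 16.5 across LRP1 eKO libraries (SD, n = 4 each).

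Macrophages and Kupffer cells, which also respond to interferon, left markers that varied strongly among LRP1 eKO libraries. Over 12 markers, the mean log2(signal + 1) was 1.78 to 2.29 in WT libraries, and 3.81, 1.25, 3.67 and 3.12 in LRP1 eKO replicates 1 to 4. The summed signal of these markers ran from 110 to 215 in WT and from 51.9 to 701 in LRP1 eKO libraries, and Clec4f and Timd4, which define Kupffer cells, were listed at 0 in every WT library. In LRP1 eKO libraries Clec4f stayed below 1, and Timd4 was listed at 0 in 3 of the 4. Of the 12 markers, 3 stayed below 1 in every library and 7 were tested. All 7 had a positive log2 fold change, as did 5516 of the 11391 genes tested. The median of the 7 was 1.25, and 0 were called higher, where 0.869% of all genes tested were. LRP1 eKO replicate 2 had less macrophage signal than any WT library. In that library Isg15 was 124, Usp18 26.1, Ube2l6 73.9, Uba7 9.46 and Herc6 5.15, each above every WT library. With the macrophage mean as a covariate, the log2 fold changes were 3.50 for Isg15, 0.62 for Uba7, 1.39 for Ube2l6, 0.96 for Herc6 and 3.37 for Usp18. These are values of genes chosen from the same libraries, and the part of macrophages in them was not tested.

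**Figure D5:**
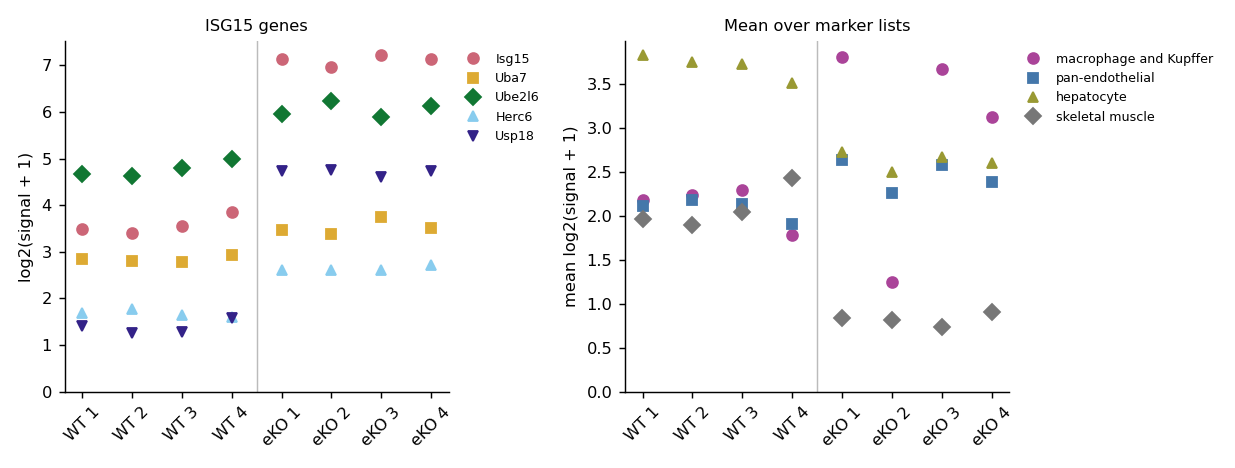
Left, log2(signal + 1) of the 5 ISG15 genes in each library, and right, the mean log2(signal + 1) over the marker lists of macrophages and Kupffer cells, pan-endothelial cells, hepatocytes and skeletal muscle in the same libraries (WT and LRP1 eKO replicates 1 to 4 on the x axis). In LRP1 eKO replicate 2 the macrophage mean is 1.25, below each WT library, and the 5 ISG15 genes lie above each WT library. Among LRP1 eKO libraries, Isg15 and Uba7 are lowest and Ube2l6 and Usp18 highest in this replicate. The part of macrophages in these values was not tested.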

How the data were processed

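The authors deposited a quantile-normalized signal for each protein-coding gene and library. The paper's methods name trimGalore, STAR, featureCounts and edgeR, whereas the submitters' processing notes name TopHat2, Cufflinks and mm10. Which of these made the table, and the unit before normalization, are not given in the sources used here. Quantile normalization removes a global shift between groups. Depth is unknown, and no counting error was computed.

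Groups came from the sample labels, and 0 columns were left unused. Genotypes were compared on log2(signal + 1) by limma 3.58.1 (R 4.3.3), using a mean-variance trend and no covariate. P-values were adjusted (Benjamini-Hochberg) over the 11391 genes whose signal reached 1 in 4 or more libraries. The threshold, an adjusted p under 0.05 and a 2-fold change, is that of the paper's methods. The members and lists were chosen with earlier results of these data known. Named were the 5 members, Lrp1, the nearest paralogs, the 3 most similar profiles, and in each list every called gene, or otherwise up to 3 with the smallest adjusted p. Some genes that this rule names are not reported here, but stay in the counts. Other genes named (neighbors and further list and marker genes) were chosen after their values were seen. Positions and transcripts came from GENCODE M21 (GRCm38). The calculation was tested on simulated data. Alternatives were other pseudocounts, filters, variance models, weights, centering, a replicate block, a macrophage covariate, another threshold, a ratio of means and each library left out in turn. Python 3.11.15 with matplotlib 3.10.9 made the figures.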

Additional observations from a re-analysis of the deposited data

Results flagged for a closer look

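In 62 groups of 4 libraries, the gap of the highest or lowest library to its nearest neighbor was divided by the range of the group, and 4 groups exceeded Dixon's critical share for 4 values, where about 3.1, or 1 in 20, are flagged by chance. For Herc6, LRP1 eKO replicate 4 was the highest library at 5.60 against 5.10 to 5.15 in the others, a share of 0.897. For Ddx58, LRP1 eKO replicate 3 was the highest of its group, also with a share of 0.897. For Mndal, LRP1 eKO replicate 1 was the lowest of its group, with a share of 0.89. For Ube2l3, WT replicate 2 was the highest of its group at 85.4, with a share of 0.92.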

How the results depend on the processing

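The direction of each member was the same under every alternative run. With a pseudocount of 0.1, the log2 fold change was 1.22 for Herc6 and 3.89 for Usp18, and 149 genes were called higher and 166 lower. With a pseudocount of 5, it was 3.17 for Isg15, 0.48 for Uba7, 0.51 for Herc6 and 2.19 for Usp18, 40 genes were called higher and 26 lower, and 0 partners, 0 substrates and 0 lower family genes (Ube2c) were called. The log2 ratio of arithmetic means was 1.25 for Herc6 and 3.96 for Usp18. At an adjusted p under 0.05 alone, 2164 genes were higher and 2526 lower, with 5 members, 5 partners, 9 substrates, and 19 higher and 16 lower family genes. A minimum mean signal of 5 left 63 genes called higher, and Herc6, below it, had no value. Array weights gave 147 genes called higher, 83 called lower and 2 called partners. The macrophage covariate gave 90 genes called higher and 121 called lower.

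With 1 library left out, the counts ran from 81 to 163 genes called higher, with 163 without LRP1 eKO replicate 2, from 75 to 105 called lower, from 1 to 2 partners and from 3 to 4 substrates. The log2 fold changes then ran from 3.49 to 3.64 for Isg15, 0.61 to 0.73 for Uba7, 1.22 to 1.35 for Ube2l6, 0.94 to 1.00 for Herc6 and 3.28 to 3.39 for Usp18. Without WT replicate 4 and LRP1 eKO replicate 2, an alternative chosen after seeing the data, 152 genes were called higher and 2 partners were. The cause of these shifts was not tested.

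The deviations of same-numbered libraries had correlations of -0.0856, -0.130, 0.178 and 0.0378 across genes. The labels do not say whether same-numbered libraries were paired, and these correlations cannot settle it. With the replicate block, 102 genes were called higher and 90 lower, and the log2 fold change was 3.55 for Isg15. Unknown depth and 4 libraries a group limit the precision, and the table cannot show whether ISG15 was conjugated to protein.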
